A study of Homo sapiens with 12 samples.

Results

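HCT116, a human colorectal carcinoma line, was compared in 2 forms: AGO2 knockout cells given back a mutant AGO2 with an FH tag (genotype FH-AGO2_5xA, called FH-5xA here) and the parental cells. The comparison asks what differs from the parental line after the mutant protein has been returned. It covers 3 FH-5xA and 3 parental libraries, 6 of the 12 libraries of the series, and all 15074 genes of the authors' table. Values of the other groups, 3 libraries each, are given beside it: knockout cells given back FH-tagged wild-type AGO2 (FH-AGO2_WT, called FH-WT) and AGO2 knockout cells without a transgene (AGO2_KO, called knockout). FH-5xA, FH-WT and knockout cells share the loss of the cells' own AGO2. Wells were seeded with 500000 cells and collected after 48 h, and ribosomal RNA was depleted from total RNA before stranded libraries were made. The promoter that drives the FH transgenes, and whether each line grew from a single clone, are not given in sources used here. The p-values below therefore measure the spread between wells of 1 line per group, not between lines made independently.

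AGO2 is an Argonaute protein. It holds a microRNA, pairs with target mRNAs mainly through the seed of the microRNA, and recruits GW182 (TNRC6) scaffold proteins, which bring deadenylation, decapping and decay. In the 5xA mutant, alanines stand in place of the phosphorylatable residues of a cluster near the C terminus of AGO2. Casein kinase 1 alpha (CSNK1A1) is known to phosphorylate that cluster when AGO2 is bound to target mRNA, and the protein phosphatase 6 complex, with its regulatory subunit ANKRD52 and its catalytic subunit PPP6C, is known to remove the phosphates.

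The microRNAs whose targets are followed below are shown by their mature sequences from RefSeq (GRCh38.p14), because targets are found through the seed, bases 2 to 8, which is in capitals. The first 4 share the seed of the miR-17 family, the next 2 that of miR-19, and the pair after let-7a that of miR-200b/c.
hsa-miR-17-5p: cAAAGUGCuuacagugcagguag
hsa-miR-20a-5p: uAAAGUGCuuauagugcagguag
hsa-miR-93-5p: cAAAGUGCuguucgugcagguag
hsa-miR-106b-5p: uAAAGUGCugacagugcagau
hsa-miR-19a-3p: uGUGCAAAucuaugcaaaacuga
hsa-miR-19b-3p: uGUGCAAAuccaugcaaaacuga
hsa-let-7a-5p: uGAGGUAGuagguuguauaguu
hsa-miR-200b-3p: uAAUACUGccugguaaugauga
hsa-miR-200c-3p: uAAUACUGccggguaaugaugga
hsa-miR-29a-3p: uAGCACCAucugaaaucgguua
hsa-miR-34a-5p: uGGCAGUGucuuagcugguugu
On chromosome 13, plus strand, miR-17-5p lies at chr13:91350618-91350640, miR-19a-3p at chr13:91350939-91350961 and miR-20a-5p at chr13:91351072-91351094, in 1 cluster. miR-93-5p (chr7:100093815-100093837) and miR-106b-5p (chr7:100094043-100094063) lie together on the minus strand of chromosome 7. The levels of the microRNAs themselves were not analysed here.

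Each gene has a log2 fold change, FH-5xA over parental, from the authors' deposited table. Errors are standard errors (SE) derived from the deposited likelihood ratio score. A gene was called when its deposited false discovery rate (FDR, edgeR) was under 0.05, and "rose" and "fell" are used of called genes. Levels are fitted values in CPM (read counts scaled to library size) for each group, rebuilt from the deposited mean expression and fold changes. They compare groups within a gene and not genes with each other, since they are not scaled by length. Values per library were not analysed here, so library depth is unknown and no statement is made on whether single libraries overlap between groups.

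AGO2 mRNA (ENSG00000123908, chromosome 8, 140520156 to 140635619, GRCh38) stood at a fitted 267 CPM in FH-5xA cells, 270 CPM in FH-WT cells, 161 CPM in the knockout and 205 CPM in parental cells. In the authors' deposited table it was higher in FH-5xA than in parental cells by 0.38 ± 0.07 on the log2 scale, at an FDR of 1.4e-07. Both lines with a transgene thus had more AGO2 mRNA than parental cells, and the knockout had less. Whether reads of the transgene and of the edited gene were counted alike is not given in sources used here.

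Of the other silencing proteins, TNRC6B, TNRC6C and AGO3 rose, and AGO1, AGO4, TNRC6A and DICER1 were not called. TNRC6C, a GW182 scaffold, was at 35.5 CPM in FH-5xA, 36.5 in FH-WT, 30.8 in knockout and 22.8 CPM in parental cells, a log2 fold change of 0.64 ± 0.12 over parental in the authors' deposited table. Its paralog TNRC6B rose by 0.46 ± 0.08 and AGO3 by 0.35 ± 0.07 in the authors' deposited table. AGO1 had a log2 fold change of -0.01 ± 0.08, AGO4 of 0.15 ± 0.11 and TNRC6A of 0.10 ± 0.08 in that deposited table of the authors. DICER1, the nuclease that cuts microRNAs from their precursors, was at 179 CPM in FH-5xA, 207 in FH-WT, 276 in knockout and 188 CPM in parental cells. Its -0.07 ± 0.08 over parental was not called, while the authors' deposited table for FH-5xA against knockout had it lower by 0.62 ± 0.08. DROSHA, the nuclear microRNA nuclease, missed the threshold at 0.28 ± 0.12 (FDR 0.051 in the authors' deposited table) and passed it once fold changes were centred on the median of all genes.

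The kinase and phosphatase of the AGO2 cycle moved unequally. ANKRD52 stood at 51.1 CPM in FH-5xA, 53.5 in FH-WT, 66.4 in knockout and 29.9 CPM in parental cells, and rose by 0.77 ± 0.13 over parental in the authors' deposited table (FDR 7.9e-08). PPP6C at -0.07 ± 0.09 and CSNK1A1 at -0.04 ± 0.07 were not called in the authors' deposited table. Among relatives of CSNK1A1, the kinase CSNK1D rose by 0.52 ± 0.07 and CSNK1E by 0.27 ± 0.08 in the authors' deposited table, and CSNK1E was no longer called once fold changes were centred within 5 bins of transcript GC content. PPP6R3, a regulatory subunit of the same phosphatase, fell by 0.27 ± 0.07 in the authors' deposited table. At an adjusted p under 0.05, none of the 12 core genes separated FH-5xA cells from FH-WT cells (derived difference described below), and the widest differences were -0.23 ± 0.09 for PPP6C and -0.20 ± 0.08 for DICER1.

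Among 28 measured genes of deadenylation and decay, 11 rose and 5 fell, beside 22.9% of all genes higher and 20.9% lower. The median was 0.09, and 0.0524 without chromosome 7. TOB1, an antiproliferative adaptor that binds the CCR4-NOT deadenylase, was at 92.5 CPM in FH-5xA, 73.5 in FH-WT, 81.5 in knockout and 44.6 CPM in parental cells. It rose by 1.05 ± 0.12 over parental in the authors' deposited table, its relatives BTG1 by 0.63 ± 0.11 and TOB2 by 0.48 ± 0.08. The CCR4-NOT subunits CNOT9 and CNOT10 fell by 0.43 ± 0.07 and 0.41 ± 0.06 in the authors' deposited table. Of 14 genes of microRNA processing and loading, TUT4, a uridylyltransferase of let-7 precursors, rose by 0.33 ± 0.09, and RAN, DGCR8 and FKBP4 fell by 0.19 to 0.29 in the authors' deposited table, DGCR8 and FKBP4 without passing an FDR of 0.01.

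FH-5xA cells differed from parental cells in 6602 of 15074 genes (43.8%) in the authors' deposited table, of which 3449 rose (22.9% of all genes) and 3153 fell (20.9%). Most of these changes were small: 3443 of the called genes (52.2%) moved by less than 0.5 on the log2 scale, and 834 moved at least 2-fold, 585 higher and 249 lower. The median fold change of all genes was -0.0021 and the median SE was 0.118. Precision followed expression, with a median SE of 0.256 among genes whose mean was under 1 on the log2 CPM scale and 0.0842 among those at 6 or more. With the same parental libraries as the control, the authors' deposited tables called 34.4% of genes in FH-WT and 44.4% in knockout cells. Against the knockout, FH-5xA cells differed in 11.3% of genes. Since these comparisons share libraries, their values are set side by side without a test of their likeness.

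**Figure D1:**
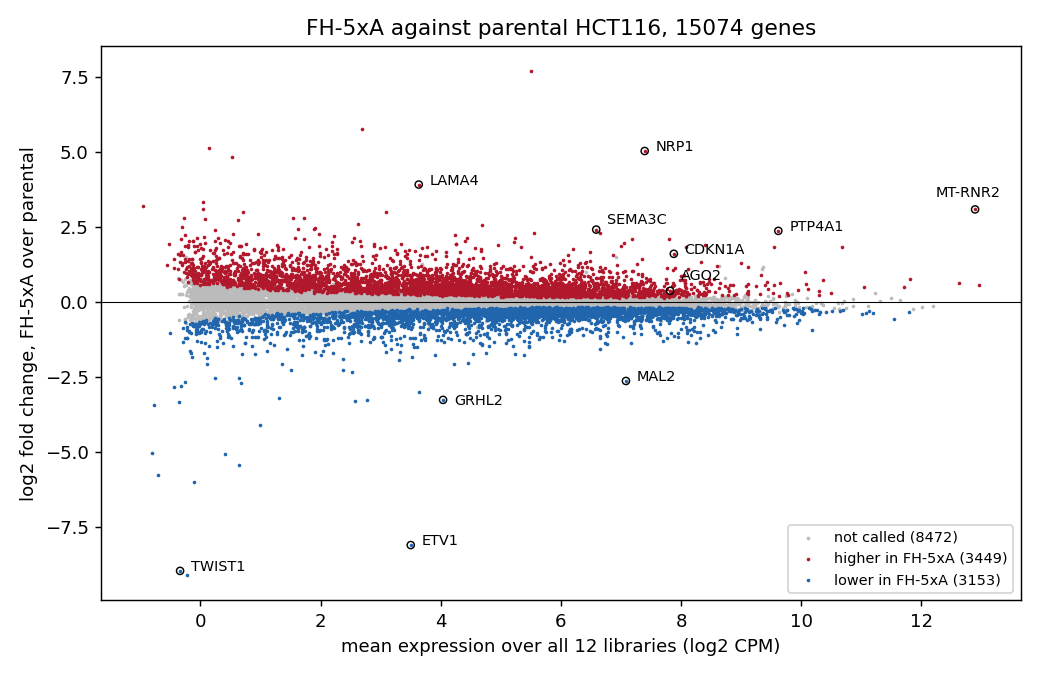
Log2 fold change of 15074 genes, FH-5xA over parental (vertical axis), against mean expression over all 12 libraries in log2 CPM (horizontal axis). Red points are the 3449 genes called higher in FH-5xA, blue points the 3153 called lower and grey points those not called; NRP1 and LAMA4 stand far above 0, and the lowest points, such as ETV1 and TWIST1, are genes near zero in FH-5xA whose fitted folds depend on the prior count.

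Several features of the libraries moved with the groups. Chromosome 7 was shifted by position: 183 of 226 measured genes from its start to 50 Mb fell and 8 rose, with a median of -0.87, while 337 of 454 genes beyond 70 Mb rose and 14 fell, with a median of 0.53. The same medians were -0.86 and 0.51 in FH-WT and -0.90 and 0.49 in knockout cells. Mitochondrial transcripts made up 1.99% of fitted expression in FH-5xA, 3.91% in FH-WT, 1.29% in knockout and 0.870% in parental cells. Fold changes followed the GC content of the transcript: in the bin of coding genes richest in GC, of 5 equal bins, the median was 0.16, with 30.8% of genes higher and 8.01% lower, and in the poorest bin it was -0.07, with 19.2% higher and 29.7% lower. In FH-WT those medians were 0.02 and -0.02, and in the knockout -0.02 and 0.0024. Few markers of blood, endothelium and fibroblasts were measured. For blood these were 0 of 15, and for endothelium 1 of 11 (ESAM, not called). For fibroblasts they were 2 of 14 (ACTA2 and COL1A1, both higher). Of neural and embryonic kidney markers 6 were measured, of which 2 rose and 2 fell, with log2 fold changes between -0.83 and 1.74. Of 18 colorectal epithelial markers 6 were measured, and CDH1, EPCAM, KRT18 and KRT8 fell. What these features contribute to the results below was not tested, beyond leaving out chromosome 7 and centring within 5 bins of GC content.

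Textbook miR-17 family targets and miR-19 targets were more often higher than lower. Of 24 measured targets of the miR-17 family 12 rose and 4 fell, with a median of 0.28, against 0.15 for the same genes in FH-WT and 0.29 in knockout cells. For 15 miR-19 targets 9 rose and 0 fell, with a median of 0.25, against 0.30 in FH-WT and 0.42 in knockout cells. The shares called higher, 12 of 24 and 9 of 15, stand beside 22.9% of all genes. Targets were taken from textbook knowledge and not from binding data on these cells.

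CDKN1A, the p21 inhibitor of cyclin-dependent kinases, led the miR-17 targets that rose. It stood at 259 CPM in FH-5xA, 251 in FH-WT, 348 in knockout and 84.6 CPM in parental cells, and rose by 1.61 ± 0.11 over parental in the authors' deposited table (FDR 2.4e-46). The cells with FH-5xA thus remained close to FH-WT cells and well above parental cells, with the knockout highest. BCL2L11, the proapoptotic BH3 protein BIM and a target of both families, was at 31.4 CPM in FH-5xA, 27.0 in FH-WT, 36.0 in knockout and 16.7 CPM in parental cells. It rose by 0.91 ± 0.11 over parental in the authors' deposited table. TP53INP1, a p53-induced stress protein on both lists, rose by 1.27 ± 0.11, and the transcription factor RUNX1 by 1.46 ± 0.14 in the authors' deposited table. Others fell. RBL1, the pocket protein p107, fell by 0.65 ± 0.07, and ITGB8, which lies in the left part of chromosome 7 that was lower as a block, fell by 2.34 ± 0.15 in the authors' deposited table.

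On the miR-19 list, ATXN1, the transcriptional regulator ataxin 1, was at 34.0 CPM in FH-5xA, 30.0 in FH-WT, 48.0 in knockout and 19.6 CPM in parental cells and rose by 0.79 ± 0.08 in the authors' deposited table. BMPR2, a type II receptor for bone morphogenetic proteins, rose by 0.84 ± 0.09, and SOCS1, an inhibitor of cytokine signalling, by 1.02 ± 0.28 in the authors' deposited table. The 3′ untranslated regions (UTRs) of these transcripts in GENCODE 29 (GRCh38) hold matches to the seeds printed above, shown here to place the genes that lead the lists. Capitals mark the bases that pair with seed bases 2 to 8.
CDKN1A, miR-17 family, site 1 of 2: gaagtaaacagatgGCACTTTgaa
CDKN1A, miR-17 family, site 2 of 2: ctccccagttcattGCACTTTgat
BCL2L11, miR-17 family, site 1 of 1: gtctcctgactagaGCACTTTact
BCL2L11, miR-19, site 1 of 1: tggcttacttgtgtTTTGCACtga
ATXN1, miR-19, site 1 of 5: aaagaaccttgcgaTTTGCACata
BMPR2, miR-19, site 2 of 3: ctatgacagtgaatTTTGCACagg
The CDKN1A sites lie on the plus strand at chr6:36686254-36686277 and chr6:36686934-36686957, those of BCL2L11 on the plus strand at chr2:111166216-111166239 and chr2:111168309-111168332. The ATXN1 site lies on the minus strand at chr6:16304791-16304814 and the BMPR2 site on the plus strand at chr2:202560574-202560597. A match of letters is a description and not a measured binding site.

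The remaining target lists had members in both directions, and their counts stand beside 22.9% of all genes higher and 20.9% lower. The let-7 rises and the miR-29 and miR-34 falls were near those shares. For let-7, 5 of 22 targets rose and 8 fell, with a median of -0.13, which was -0.0715 without chromosome 7 and -0.0585 when centred within GC bins. The zinc finger factor PLAGL2 rose by 0.60 ± 0.13, while the helicase-nuclease DNA2 fell by 0.49 ± 0.09, the phosphatase CDC25A by 0.36 ± 0.07 and MYC by 0.46 ± 0.12 in the authors' deposited table. For miR-15/16, 3 of 18 rose and 8 fell (median -0.19, and -0.0974 without chromosome 7), led by the haematopoietic transcription factor MYB, which fell by 1.19 ± 0.09, and the antiapoptotic BCL2, which fell by 0.80 ± 0.12 in the authors' deposited table. DNA2, CDC25A, MYC, MYB and the checkpoint kinase CHEK1, which fell by 0.50 ± 0.07 in the authors' deposited table, are also genes of proliferation. For miR-29, 9 of 16 rose and 3 fell (median 0.23), among them TET3, a 5-methylcytosine dioxygenase, at 0.58 ± 0.09, and the laminin LAMC1 at 0.57 ± 0.09 in the authors' deposited table. For miR-34, 7 of 16 rose and 4 fell (median 0.13), with the receptor kinases MET and AXL higher by 1.0 ± 0.08 and 0.51 ± 0.09 in the authors' deposited table. MET lies in the right part of chromosome 7. For miR-21, 8 of 20 rose and 6 fell (median 0.16), with the antiproliferative BTG2 higher by 0.94 ± 0.11 in the authors' deposited table.

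For miR-200, 5 of 21 targets rose and 4 fell, with a median of 0.04, near the 22.9% and 20.9% of all genes. ZEB1, a repressor of epithelial genes and the best known miR-200 target, was at 26.1 CPM in FH-5xA, 35.6 in FH-WT, 32.1 in knockout and 8.03 CPM in parental cells. It rose by 1.70 ± 0.10 over parental in the authors' deposited table (FDR 4.9e-66) and was lower in FH-5xA than in FH-WT cells by a derived 0.45 ± 0.09. The annotated ZEB1 3′ UTR holds 6 matches to the miR-200b/c seed, of which the 3 followed by A are shown, with the paired bases in capitals.
ZEB1, miR-200b/c, site 1 of 6: ttgttttatcttatCAGTATTatc
ZEB1, miR-200b/c, site 4 of 6: tgatttttacctatCAGTATTatt
ZEB1, miR-200b/c, site 5 of 6: gtcttcaaacctggCAGTATTaat
They lie on the plus strand at chr10:31527619-31527642, chr10:31528493-31528516 and chr10:31528563-31528586. NOTCH1, a receptor of cell fate signalling, rose by 1.28 ± 0.22, and the membrane-cytoskeleton linker MSN by 0.53 ± 0.09 in the authors' deposited table.

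Over all targets with a seed match the shifts were small. In 11735 coding genes with an annotated 3′ UTR, genes with a match to bases 2 to 8 had a higher median fold change over parental than genes without one for each of 19 families, by 0.0057 to 0.088 on the log2 scale, with a median gap of 0.045. The gap was 0.045 for the miR-17 family in FH-5xA, against 0.042 in FH-WT and 0.11 in knockout cells. Counting only matches followed by A, it was 0.084 in FH-5xA for the miR-17 family, 0.058 for miR-200b/c and -0.00051 for miR-29. Over all matches to bases 2 to 8, the miR-19 gap was 0.058 in FH-5xA, 0.055 in FH-WT and 0.14 in knockout cells. For let-7 it was 0.047, 0.029 and 0.078 in the same order. Again over all matches, the gap was 0.087 in FH-5xA for miR-122, a microRNA known for liver, and 0.053 for miR-1, known for muscle. Genes with a match have longer 3′ UTRs (median 2960 bases for the miR-17 family, against 1036 without a match). Within 5 bins of UTR length the mean gap was 0.035 for the miR-17 family, 0.030 for miR-19, 0.021 for let-7 and -0.042 for miR-21. It was 0.075 for miR-122, above those families, and 0.019 for miR-1. The mean gap was negative for 7 of the 19 families, miR-200b/c among them at -0.019. Genes are not independent replicates, and these gaps are given as descriptions.

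**Figure D2:**
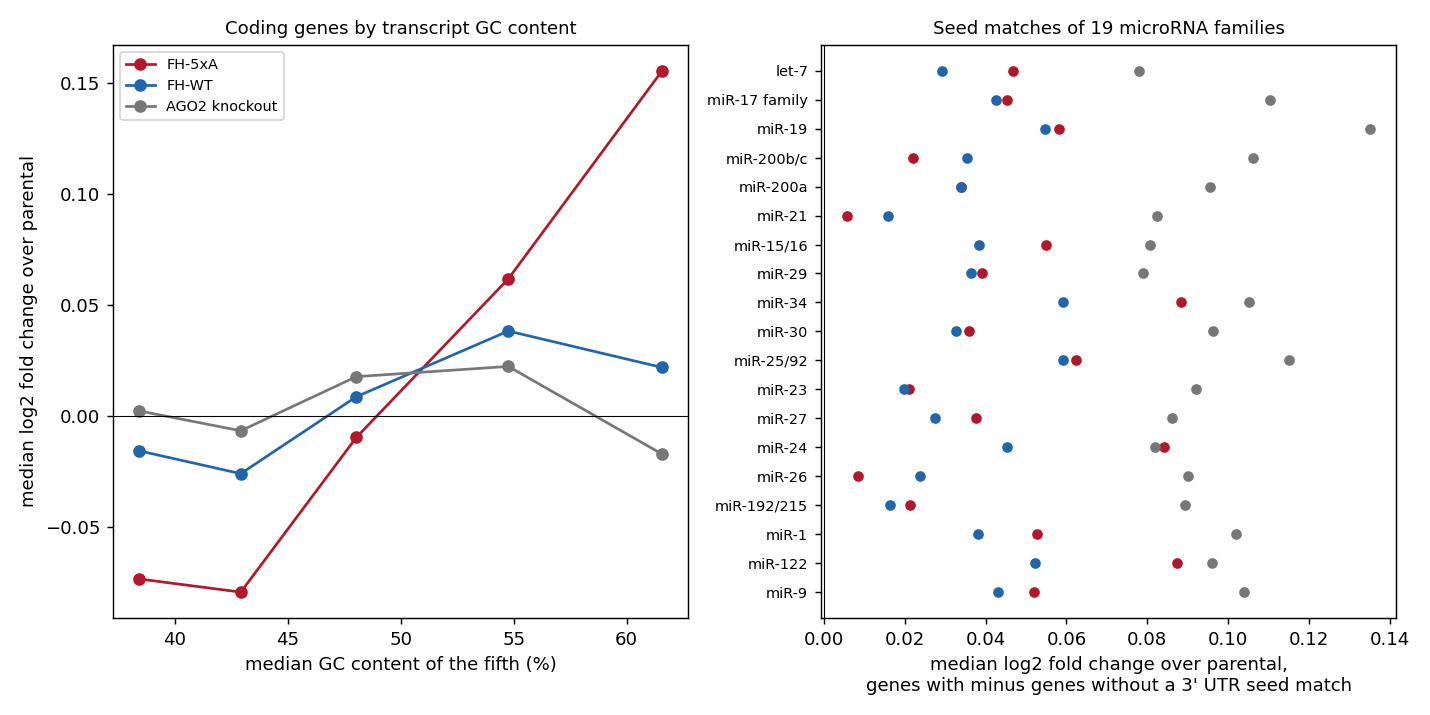
Left: median log2 fold change over parental of coding genes in 5 bins of transcript GC content (horizontal axis, median GC of the bin in percent), for FH-5xA (red), FH-WT (blue) and knockout cells (grey); the FH-5xA line runs between -0.08 and 0.16 and the others stay between -0.03 and 0.04. Right: gap between the median log2 fold change of genes with and without a 3′ UTR seed match for 19 microRNA families in the same comparisons; the FH-5xA points lie between 0.0057 and 0.088 and most lie left of the knockout points.

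Several of the largest rises in FH-5xA cells were in genes of the cell surface and the extracellular matrix. NRP1, a coreceptor for class 3 semaphorins and VEGF (ENSG00000099250, chromosome 10, 33177492 to 33336262), stood at 192 CPM in FH-5xA, 221 in FH-WT, 255 in knockout and 5.80 CPM in parental cells. Its log2 fold change over parental was 5.05 ± 0.10 in the authors' deposited table. LAMA4, a basement membrane laminin chain (chromosome 6, 112108760 to 112254939), was at 19.3 CPM in FH-5xA, 16.5 in FH-WT, 12.6 in knockout and 1.27 CPM in parental cells, and rose by 3.93 ± 0.14 in the authors' deposited table (FDR 8.2e-181). The lines derived from the knockout were all high in both genes and parental cells low. COL17A1, a transmembrane collagen of hemidesmosomes, rose by 3.0 ± 0.17, and its hemidesmosome partner, the integrin ITGB4, by 2.30 ± 0.17 in the authors' deposited table. LOXL4, an enzyme that crosslinks collagen, rose by 2.59 ± 0.15 and COL4A6, a basement membrane collagen, by 2.48 ± 0.21 in the authors' deposited table.

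Other large rises had other roles. PTP4A1, the phosphatase PRL-1, was at 1183 CPM in FH-5xA, 913 in FH-WT, 825 in knockout and 227 CPM in parental cells and rose by 2.38 ± 0.13 in the authors' deposited table (FDR 7.6e-71). MGLL, a lipase of monoacylglycerols, rose by 2.81 ± 0.20, MDGA1, a glycolipid-anchored surface protein, by 2.81 ± 0.20, the mucin MUC19 by 2.45 ± 0.20 and NAV3, a microtubule-associated neuron navigator, by 2.30 ± 0.11 in the authors' deposited table. SEMA3C, a secreted semaphorin, rose by 2.42 ± 0.08 and CPA4, a carboxypeptidase, by 2.57 ± 0.13 in the authors' deposited table. Both lie in the right part of chromosome 7, whose median was 0.53. MT-RNR2, the large mitochondrial ribosomal RNA, was at 3.10 ± 0.74 in the authors' deposited table, an error several times that of the other genes named here, and near-identical nuclear copies make its count uncertain. SCAT8, a noncoding gene antisense to its neighbours, was at 10.6 CPM in FH-5xA, 9.97 in FH-WT, 4.93 in knockout and 0.194 CPM in parental cells. Its fitted fold depends on the prior count at that parental level, and whether counting used strand is not given in sources used here. An unnamed long noncoding gene of chromosome 21, ENSG00000281383, picked out after its values were seen, stood at 26.5 CPM in FH-5xA, 155 in FH-WT, 0.215 in knockout and 0.126 CPM in parental cells.

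**Figure D3:**
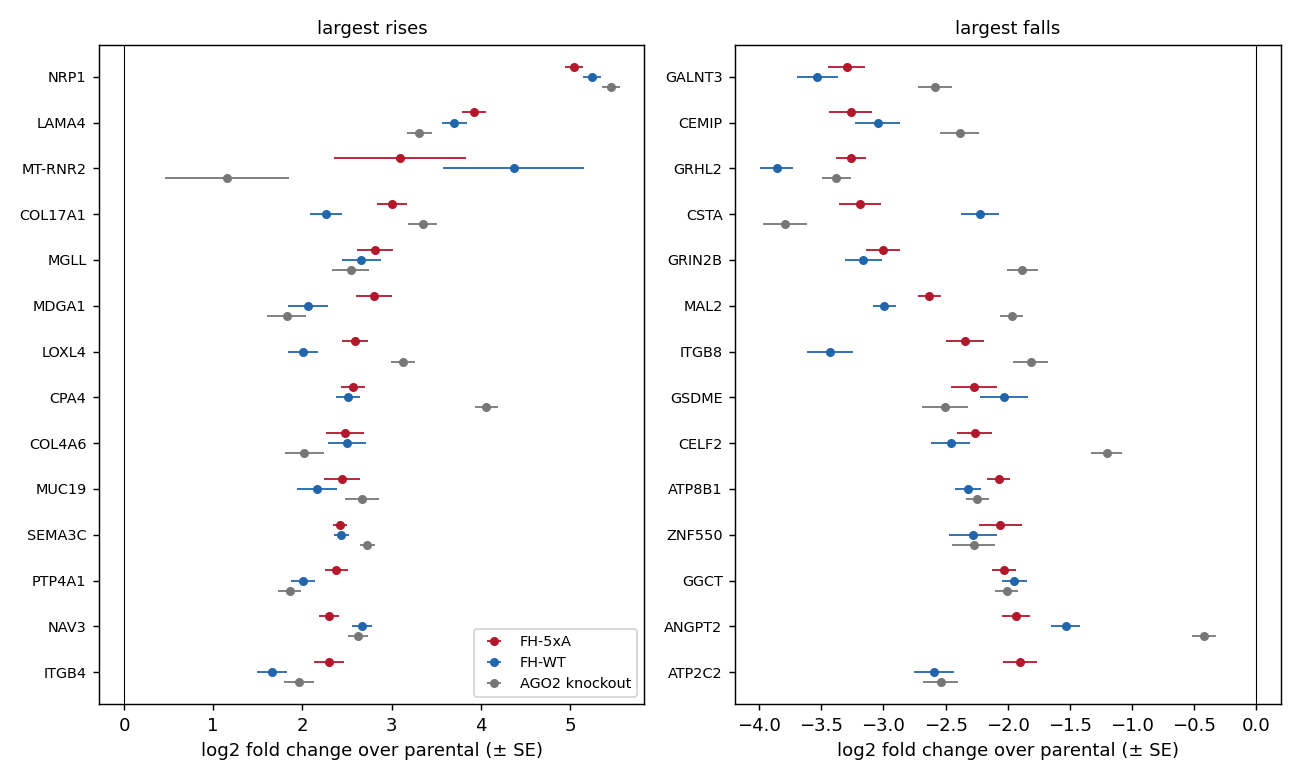
Log2 fold change over parental with SE bars (horizontal axes) for the largest rises (left) and falls (right) in FH-5xA cells, leaving out genes near zero in either group; FH-5xA is red, FH-WT blue and knockout grey. NRP1 at 5.05 and GALNT3 at -3.30 lead in FH-5xA, all 3 lines lie on the same side of 0 for every gene shown, and ANGPT2 is the gene where the knockout lies closest to parental.

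Some genes known from epithelia were among the largest falls, while the hemidesmosome genes COL17A1 and ITGB4 were among the largest rises. GRHL2, a grainyhead factor that maintains epithelial identity (chromosome 8, 101492432 to 101669726), was at 5.40 CPM in FH-5xA, 3.56 in FH-WT, 4.98 in knockout and 51.8 CPM in parental cells, and fell by 3.26 ± 0.12 in the authors' deposited table (FDR 1.9e-165). GALNT3, which starts mucin-type O-glycosylation (chromosome 2, 165747591 to 165794682), was at 1.78 CPM in FH-5xA, 1.51 in FH-WT, 2.92 in knockout and 17.5 CPM in parental cells, and fell by 3.30 ± 0.15 in the authors' deposited table. Parental cells were highest in both. MAL2, a protein of apical membrane traffic, stood at 56.8 CPM in FH-5xA, 44.2 in FH-WT, 89.9 in knockout and 352 CPM in parental cells, and fell by 2.63 ± 0.09 in the authors' deposited table. CEMIP, a hyaluronan-binding protein, fell by 3.26 ± 0.17, the protease inhibitor CSTA by 3.19 ± 0.17 and the flippase ATP8B1 by 2.07 ± 0.10 in the authors' deposited table.

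Of the remaining large falls, some were deeper in FH-5xA than in the knockout itself. GRIN2B, a subunit of NMDA glutamate receptors, was at 4.10 CPM in FH-5xA, 3.67 in FH-WT, 8.92 in knockout and 32.9 CPM in parental cells. It fell by 3.0 ± 0.14 against parental, and FH-5xA stood below the knockout by 1.12 in the authors' deposited tables (FDR 5e-12). ANGPT2, a ligand of the TIE2 receptor, fell by 1.93 ± 0.11 against parental and stood below the knockout by 1.52 in the authors' deposited tables. CELF2, an RNA-binding splicing regulator, fell by 2.26 ± 0.14 against parental and stood below the knockout by 1.06 in the authors' deposited tables. The pore-forming gasdermin GSDME fell by 2.27 ± 0.19 and GGCT, an enzyme of glutathione turnover, by 2.03 ± 0.10 in the authors' deposited table. Both lie in the left part of chromosome 7, whose median was -0.87, as do ETV1 and TWIST1. ETV1, an ETS transcription factor, was near zero at 0.163 CPM in FH-5xA, 0.0988 in FH-WT and 0.0696 in knockout cells, against 44.9 CPM in parental cells. TWIST1, a mesenchymal transcription factor, was at the lowest fitted level in all 3 lines derived from the knockout and at 3.14 CPM in parental cells.

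Many matrix genes rose. Of 36 measured genes of collagens, laminins and matrix, 23 rose and 3 fell, beside 22.9% and 20.9% of all genes, with a median of 0.53, against 0.21 for the same genes in FH-WT and 0.45 in knockout cells. The laminin chain LAMB1, on the right part of chromosome 7, was at 102 CPM in FH-5xA, 111 in FH-WT, 108 in knockout and 39.0 CPM in parental cells and rose by 1.38 ± 0.07 in the authors' deposited table. COL4A5, a partner of COL4A6, rose by 1.52 ± 0.11 in the authors' deposited table. Among neuropilins, plexins and semaphorins 17 of 25 rose and 1 fell, with a median of 0.61, against 0.52 in FH-WT and 0.49 in knockout cells. After NRP1 and SEMA3C these were led by SEMA3E at 1.94 ± 0.15, SEMA3D at 1.56 ± 0.14 and the receptor PLXNA3 at 1.06 ± 0.15 in the authors' deposited table. SEMA3E and SEMA3D lie, like SEMA3C, in the right part of chromosome 7, which was higher as a block. Without chromosome 7 the median was 0.442 for the matrix genes and 0.552 for the semaphorin genes. Both lists are rich in GC, with a median transcript content of 58.0% for the matrix genes and 60.4% for the semaphorin genes, and with fold changes centred within GC bins their medians were 0.50 and 0.53.

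Epithelial and mesenchymal genes were mixed. Of 12 mesenchymal genes 5 rose and 3 fell, beside 22.9% and 20.9% of all genes. VIM, the intermediate filament vimentin, was at 9.23 CPM in FH-5xA, 14.9 in FH-WT, 13.9 in knockout and 2.40 CPM in parental cells and rose by 1.95 ± 0.17 in the authors' deposited table. ACTA2, smooth muscle actin, rose by 1.52 ± 0.17 and LOXL2, a collagen crosslinking enzyme, by 1.22 ± 0.14, while S100A4, a calcium-binding protein of motile cells, fell by 0.93 ± 0.11 in the authors' deposited table. Of 21 epithelial transcription and splicing factors 8 rose and 6 fell: beside GRHL2, the splicing factor ESRP1 fell by 0.77 ± 0.10 and the transcription factor OVOL1 by 1.19 ± 0.21, whereas the ETS factor EHF rose by 1.10 ± 0.18 and KLF5 by 0.64 ± 0.12 in the authors' deposited table.

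Of 27 genes of epithelial junctions 10 fell and 3 rose, beside 20.9% of all genes lower and 22.9% higher. The median was -0.08, and -0.225 without chromosome 7. CDH1, the adhesion protein E-cadherin, was at 21.3 CPM in FH-5xA, 15.8 in FH-WT, 25.0 in knockout and 49.1 CPM in parental cells and fell by 1.21 ± 0.09 in the authors' deposited table (FDR 3.0e-43). The tight junction proteins CLDN7 and MARVELD3 fell by 0.80 ± 0.11 and 0.63 ± 0.09, and the adhesion molecule EPCAM fell by 0.46 ± 0.07 in the authors' deposited table. The claudin CLDN15, in the right part of chromosome 7, whose median was 0.53, rose by 0.88 ± 0.14 in the authors' deposited table. Of 18 genes of desmosomes, plakins and keratins 6 rose and 4 fell, the falls near the share of all genes. The desmosomal cadherins DSC3 and DSG2 rose by 0.53 ± 0.11 and 0.40 ± 0.08, and the keratin KRT18 fell by 0.57 ± 0.08 in the authors' deposited table. The integrin list, 16 measured genes of which 5 rose and 4 fell, held rises of ITGA3 by 0.93 ± 0.09 and ITGA2 by 0.65 ± 0.06 beside that of ITGB4 in the authors' deposited table. In bulk RNA, fewer cells that express a gene and less RNA per cell cannot be told apart.

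The lists of cell cycle genes held many falls in FH-5xA cells and hardly any rise. All 16 measured replication-dependent histones fell, with a median of -0.91, against -0.63 in FH-WT and -0.92 in knockout cells. Of 33 genes of mitosis 30 fell and 0 rose (median -0.44, against -0.31 in FH-WT and -0.51 in knockout cells), and of 38 genes of E2F and DNA replication 28 fell and 1 rose (median -0.47, against -0.33 and -0.55). The share of all genes called lower was 20.9%.

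ANLN, the anillin scaffold of the cytokinetic ring, was at 202 CPM in FH-5xA, 246 in FH-WT, 233 in knockout and 412 CPM in parental cells and fell by 1.03 ± 0.08 in the authors' deposited table. It lies in the left part of chromosome 7. NDC80, a kinetochore protein, was at 57.4 CPM in FH-5xA, 66.9 in FH-WT, 53.7 in knockout and 108 CPM in parental cells and fell by 0.91 ± 0.08 in the authors' deposited table. The mitotic cyclin CCNB2 fell by 0.72 ± 0.07, the survivin gene BIRC5 by 0.68 ± 0.08 and the spindle protein HMMR by 0.63 ± 0.07 in the authors' deposited table. Among replication genes, CDC6, which loads the replicative helicase, was at 165 CPM in FH-5xA, 192 in FH-WT, 170 in knockout and 274 CPM in parental cells and fell by 0.73 ± 0.07 in the authors' deposited table. The origin recognition subunit ORC1 fell by 0.76 ± 0.07, the flap nuclease FEN1 by 0.61 ± 0.07, the licensing inhibitor GMNN by 0.61 ± 0.07 and the helicase subunit MCM3 by 0.60 ± 0.07 in the authors' deposited table. The histones H2BC11 and H2BC21 fell by 1.09 ± 0.13 and 1.03 ± 0.11 in the authors' deposited table. Near-identical histone copies can share reads, and histone mRNAs, which mostly lack poly(A) tails, were kept by the depletion of ribosomal RNA.

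CCAAT boxes and the letters TTTGAA, the core of a known cell cycle element, were counted in the promoters of these lists. A window of 250 bases before to 50 bases after each gene start (RefSeq, GRCh38.p14) was searched on both strands. CCAAT was found in 21 of 27 mitosis promoters (77.8%) and in 36.8% of 10188 promoters of measured genes, and TTTGAA in 21 of 27 (77.8%) and in 9.51%. Both were present in 17 of 27 (63.0%) and in 3.97% of measured promoters. For the E2F list, TTTCCCGC was found in 10 of 32 promoters (31.2%) and GGCGGGAA in 9 of 32 (28.1%), against 2.66% and 5.26% of measured promoters, and the pair overlap in sequence when read on opposite strands. Among all 27305 promoters of the table the shares were 35.7% for CCAAT, 15.4% for TTTGAA, 1.66% for TTTCCCGC and 3.18% for GGCGGGAA. CCAAT stood in 11 of 13 histone promoters (84.6%), in 19 of 32 promoters of the E2F list (59.4%) and in 11 of 24 promoters of p53 targets (45.8%). It also stood in 22 of 28 promoters (78.6%) of the ATF4 and unfolded protein response list described below, so it was not particular to the cell cycle lists. The promoters of CCNB2 (chr15:59104896-59105195, plus strand) and MCM3 (chr6:52284693-52284992, minus strand) are shown as members that fell and hold several of these letters, with the letters of CCAAT, those of TTTGAA and those of GGCGGGAA in capitals on either strand.
CCNB2 promoter: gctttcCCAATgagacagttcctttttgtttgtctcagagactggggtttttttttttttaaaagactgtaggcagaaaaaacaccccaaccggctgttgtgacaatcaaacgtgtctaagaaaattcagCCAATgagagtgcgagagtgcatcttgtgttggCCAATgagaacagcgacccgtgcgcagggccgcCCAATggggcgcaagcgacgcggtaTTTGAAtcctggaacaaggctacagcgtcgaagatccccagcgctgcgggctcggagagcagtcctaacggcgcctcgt
MCM3 promoter: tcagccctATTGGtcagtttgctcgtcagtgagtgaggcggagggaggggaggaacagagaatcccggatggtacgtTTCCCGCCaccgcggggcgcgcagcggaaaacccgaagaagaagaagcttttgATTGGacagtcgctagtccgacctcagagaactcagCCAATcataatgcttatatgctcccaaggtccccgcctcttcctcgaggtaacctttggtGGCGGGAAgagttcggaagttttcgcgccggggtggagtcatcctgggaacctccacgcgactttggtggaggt
These matches describe the windows, and no binding of a factor was measured.

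Targets of p53, which is wild type in HCT116, moved the other way. Of 29 measured targets 21 rose and 0 fell, beside 22.9% and 20.9% of all genes. The median was 0.42, against 0.37 in FH-WT and 0.65 in knockout cells. Beside CDKN1A, BTG2 and TP53INP1, the BH3 protein PMAIP1 (NOXA) was at 144 CPM in FH-5xA, 137 in FH-WT, 138 in knockout and 72.7 CPM in parental cells and rose by 0.99 ± 0.12 in the authors' deposited table. The death receptor FAS rose by 0.87 ± 0.10 and ZMAT3, an RNA-binding p53 target, by 0.82 ± 0.10 in the authors' deposited table. CDKN1A and TP53INP1 are on the microRNA target lists as well, so the counts of these lists are not independent.

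**Figure D4:**
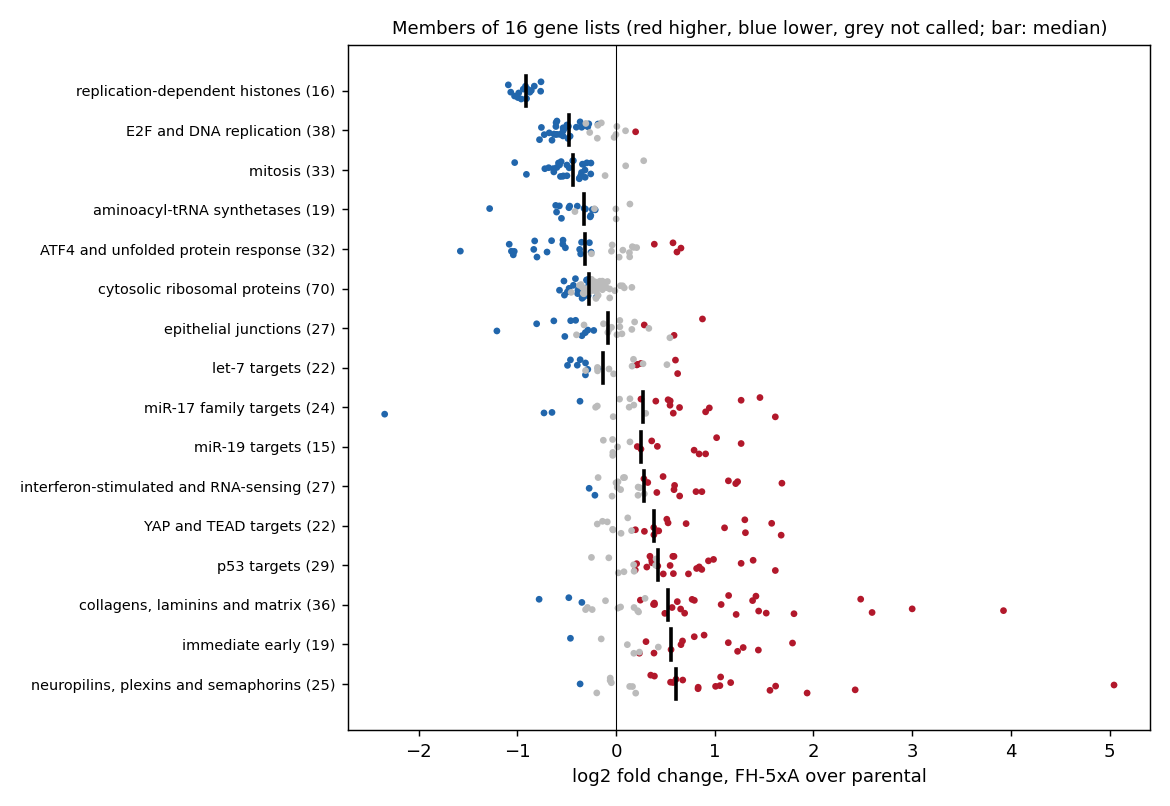
Log2 fold change, FH-5xA over parental (horizontal axis), of every measured member of 16 gene lists, with the number of members in brackets; red points were called higher, blue lower and grey not called, and black bars are list medians. Medians run between -0.91 for replication-dependent histones, where all 16 members fell, and 0.61 for neuropilins, plexins and semaphorins, where 17 of 25 rose.

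Genes of amino acid supply held more falls than rises. Of 32 genes of ATF4 and the unfolded protein response 18 fell and 4 rose, beside 20.9% of all genes lower and 22.9% higher (median -0.31, against -0.18 in FH-WT and -0.40 in knockout cells). PHGDH, the entry enzyme of serine synthesis, was at 121 CPM in FH-5xA, 134 in FH-WT, 90.3 in knockout and 248 CPM in parental cells. It fell by 1.04 ± 0.07 in the authors' deposited table (FDR 2.1e-48), and the next enzyme of the pathway, PSAT1, by 1.06 ± 0.10. CHAC1, a glutathione-degrading ATF4 target, was at 5.53 CPM in FH-5xA, 9.74 in FH-WT, 4.31 in knockout and 16.5 CPM in parental cells and fell by 1.58 ± 0.18 in the authors' deposited table. The mitochondrial PEP carboxykinase PCK2 fell by 1.08 ± 0.10, the pseudokinase TRIB3 by 1.03 ± 0.10 and the asparagine synthetase ASNS by 0.82 ± 0.08 in the authors' deposited table. ASNS did so although it lies in the right part of chromosome 7, whose median was 0.53.

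Of 19 aminoacyl-tRNA synthetases 14 fell and 0 rose, beside 20.9% and 22.9% of all genes, with a median of -0.32. GARS1, for glycine, fell by 1.28 ± 0.09 in the authors' deposited table and lies in the left part of chromosome 7. Elsewhere WARS1, for tryptophan, fell by 0.61 ± 0.07, SARS1, for serine, by 0.60 ± 0.09, TARS1, for threonine, by 0.57 ± 0.08 and LARS1, for leucine, by 0.48 ± 0.08 in the authors' deposited table. Of 70 cytosolic ribosomal protein genes 31 fell and 0 rose, with a median of -0.27, against -0.15 in FH-WT and -0.26 in knockout cells. RPL10 fell by 0.52 ± 0.10, RPL37 by 0.49 ± 0.12 and RPS20 by 0.48 ± 0.10 in the authors' deposited table, and reads from processed pseudogenes of these genes make single values uncertain. Factors of ribosome biogenesis had 8 of 29 members lower, beside 20.9% of all genes, and 1 higher, among them the nucleolar methyltransferase FBL, lower by 0.34 ± 0.07, and NPM1, lower by 0.39 ± 0.11 in the authors' deposited table.

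Of 41 nuclear genes of oxidative phosphorylation 10 fell, near the 20.9% of all genes, and 1 rose (median -0.14). SDHD, an anchor of complex II, fell by 0.47 ± 0.08 and COX6B1, a subunit of cytochrome oxidase, by 0.48 ± 0.11 in the authors' deposited table, while NDUFA4, which fell by 1.47 ± 0.14, lies in the left part of chromosome 7. For 15 genes of the mitochondrial genome the median was 1.0, with 4 higher and 0 lower, against a median of 2.22 in FH-WT and 0.50 in knockout cells. MT-ND4 and MT-RNR1 rose by 1.85 ± 0.62 and 1.85 ± 0.49 in the authors' deposited table. Errors were wide there, with a median SE of 0.502. Of all 20 measured genes of the mitochondrial genome 5 rose and 2 fell. The median SE of these 20 was 0.492, against 0.116 among other genes with at least the lowest mean expression of the 20. Of 32 genes of cholesterol and fatty acid synthesis 12 fell and 6 rose, beside 20.9% and 22.9% of all genes. The squalene epoxidase SQLE fell by 0.88 ± 0.07, whereas FASN, the fatty acid synthase, rose by 1.34 ± 0.21 and its regulator SREBF1 by 0.60 ± 0.13 in the authors' deposited table.

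Genes of hypoxia and glycolysis had 13 of 33 members higher and 5 lower, beside 22.9% and 20.9% of all genes (median 0.17, and 0.0915 when centred within GC bins). CA12, a surface carbonic anhydrase, rose by 1.72 ± 0.13, NDRG1 by 1.18 ± 0.11 and EPAS1, the HIF-2 alpha subunit, by 1.05 ± 0.09, while SLC2A1, the glucose transporter GLUT1, fell by 0.77 ± 0.10 in the authors' deposited table.

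Immediate early genes and targets of YAP rose more often than they fell. Of 19 immediate early genes 13 rose and 1 fell, beside 22.9% and 20.9% of all genes. Their median was 0.56, against 0.33 in FH-WT and 0.27 in knockout cells. Centred within GC bins the median in FH-5xA was 0.42. The AP-1 subunit FOSL2 was at 74.6 CPM in FH-5xA, 67.8 in FH-WT, 71.8 in knockout and 40.2 CPM in parental cells and rose by 0.89 ± 0.07 in the authors' deposited table. JUN rose by 1.23 ± 0.16, the mRNA decay factor ZFP36 by 1.44 ± 0.18, FOSB by 1.79 ± 0.26 and KLF6 by 0.79 ± 0.07 in the authors' deposited table. Of 22 targets of YAP and TEAD 14 rose and 0 fell (median 0.38, against 0.34 in FH-WT and 0.39 in knockout cells). NT5E, the surface enzyme CD73, was at 140 CPM in FH-5xA, 159 in FH-WT, 124 in knockout and 46.8 CPM in parental cells and rose by 1.58 ± 0.07 in the authors' deposited table. Tissue factor F3 rose by 1.30 ± 0.08, and WWTR1, the YAP paralog TAZ, by 1.31 ± 0.10 in the authors' deposited table.

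The counts of the signalling lists that follow stand beside 22.9% of all genes higher and 20.9% lower. In the TGF-beta and SMAD list 16 of 30 rose and 4 fell (median 0.28). The ligands TGFB1 and BMP2 rose by 1.42 ± 0.20 and 1.70 ± 0.24, and the signal transducer SMAD3 by 0.76 ± 0.10 in the authors' deposited table. Of 17 WNT targets and feedback genes 6 rose and 6 fell. DKK1, a secreted WNT antagonist, was at 580 CPM in FH-5xA, 437 in FH-WT, 282 in knockout and 254 CPM in parental cells and rose by 1.19 ± 0.11 in the authors' deposited table. The feedback genes AXIN2 and RNF43 fell by 0.78 ± 0.11 and 0.64 ± 0.08 in the authors' deposited table. In the MAPK feedback and ETS list 14 of 27 rose and 5 fell: the ERK phosphatase DUSP6 fell by 0.98 ± 0.08, while DUSP4, a phosphatase of the same family, rose by 1.04 ± 0.07 and the ETS factor ELK3 by 1.18 ± 0.09 in the authors' deposited table.

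Of 26 receptor tyrosine kinases 12 rose and 4 fell (median 0.28), beside 22.9% and 20.9% of all genes. MET, the hepatocyte growth factor receptor on the right part of chromosome 7, was at 1176 CPM in FH-5xA, 1162 in FH-WT, 1372 in knockout and 589 CPM in parental cells. EPHA2, an ephrin receptor, rose by 0.86 ± 0.12 and EGFR by 0.71 ± 0.10, while the ephrin receptor EPHA4 fell by 0.73 ± 0.11 in the authors' deposited table. MST1R, the receptor RON, was at 42.5 CPM in FH-5xA, 28.3 in FH-WT, 36.9 in knockout and 26.8 CPM in parental cells and rose by 0.66 ± 0.10 in the authors' deposited table. Of 11 genes of the insulin-like growth factor system 8 rose and 1 fell (median 0.45), with IGFBP6, a binding protein of IGF2, higher by 1.54 ± 0.13, IGF2 by 1.75 ± 0.32 and the docking protein IRS2 by 0.82 ± 0.13 in the authors' deposited table.

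Interferon-stimulated and RNA-sensing genes had 13 of 27 members higher and 2 lower, beside 22.9% and 20.9% of all genes. Their median was 0.28, against 0.45 in FH-WT and 0.54 in knockout cells. SAMD9, an antiviral protein encoded on the right part of chromosome 7, was at 91.6 CPM in FH-5xA, 96.9 in FH-WT, 141 in knockout and 28.6 CPM in parental cells and rose by 1.68 ± 0.10 in the authors' deposited table. TLR3, a receptor for double-stranded RNA, was at 5.58 CPM in FH-5xA, 7.26 in FH-WT, 13.2 in knockout and 3.06 CPM in parental cells. It rose by 0.87 ± 0.15 against parental and stood below the knockout by 1.24 in the authors' deposited tables. The antiviral genes IFIT1, IFIT2 and IFIT3 rose by 1.14 ± 0.15, 1.21 ± 0.17 and 1.23 ± 0.17 in the authors' deposited table. In antigen presentation 4 of 7 genes rose and 0 fell, with NLRC5, the activator of HLA class I genes, higher by 0.92 ± 0.13 and the peptide trimmer ERAP2 by 0.85 ± 0.15 in the authors' deposited table. Of 19 NF-kB genes 11 rose and 1 fell (median 0.30), with the subunits NFKB2 and REL higher by 0.56 ± 0.11 and 0.52 ± 0.10 in the authors' deposited table.

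Classes of noncoding RNA are set beside 20.9% of all genes lower and 22.9% higher. Of 64 measured small nucleolar RNAs 23 fell (35.9%) and 2 rose, and of 30 spliceosomal small nuclear RNAs 12 fell and 1 rose. Their medians were -0.36 and -0.39, against -0.27 and -0.60 in FH-WT and -0.32 and -0.58 in knockout cells. Both classes were low in expression, with a median of 1.0 and 0.99 log2 CPM and a median SE of 0.22 each. Long intergenic RNAs had 123 of 456 higher (27.0%) and 70 lower (15.4%). Processed pseudogenes, whose reads can come from their parent genes, had 285 of 1424 lower, near the share of all genes, and 107 higher (7.51%). NEAT1, the scaffold RNA of paraspeckles, was at 109 CPM in FH-5xA, 75.9 in FH-WT, 90.2 in knockout and 52.6 CPM in parental cells and rose by 1.05 ± 0.10 in the authors' deposited table. MALAT1, a nuclear RNA of speckles, rose by 0.57 ± 0.12 in the authors' deposited table. Of 18 measured host transcripts of microRNAs 5 rose and 5 fell: VMP1, which overlaps the miR-21 gene, rose by 0.77 ± 0.08, and DLEU2, which hosts miR-15a and miR-16, fell by 0.63 ± 0.11 in the authors' deposited table.

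No deposited table sets FH-5xA directly against FH-WT, so their log2 difference was derived from the tables. It passed an adjusted p of 0.05 (chi-square test on the derived difference, Benjamini-Hochberg adjustment) in 616 of 15072 genes (4.09%), 297 higher in FH-5xA (1.97%) and 319 lower (2.12%). At least 2-fold differences were found in 20 of them. The median difference of all genes was 0.0086, and by GC bin the median ran between -0.04 in the poorest bin and 0.14 in the richest.

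Metallothioneins are small proteins that bind zinc and copper. Of 6 measured, 3 were lower in FH-5xA than in FH-WT cells and 0 higher, beside 2.12% of all genes lower. MT1E was at 182 CPM in FH-5xA, 448 in FH-WT, 199 in knockout and 358 CPM in parental cells, a difference of -1.30 ± 0.17 between FH-5xA and FH-WT (adjusted p = 5.9e-10, chi-square on the edgeR scores). MT2A was at 137 CPM in FH-5xA, 340 in FH-WT, 121 in knockout and 212 CPM in parental cells, a difference of -1.32 ± 0.31. MT1X was at 11.2 CPM in FH-5xA, 20.8 in FH-WT, 10.5 in knockout and 15.3 CPM in parental cells, a difference of -0.89 ± 0.22. In all 3 genes FH-5xA stood beside the knockout and below both other groups. Against parental cells 2 of the 6 fell and 1 rose, beside 20.9% and 22.9% of all genes. MT1E fell by 0.98 ± 0.17, while MT2A at -0.64 ± 0.31 and MT1X at -0.44 ± 0.22 were not called in the authors' deposited table. Metallothionein genes are near-identical copies that can share reads.

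The other genes with large differences had varied roles. The integrin ITGB8 was at 2.89 CPM in FH-5xA, 1.36 in FH-WT, 4.17 in knockout and 14.7 CPM in parental cells, a difference of 1.09 ± 0.21 between FH-5xA and FH-WT. CSTA was at 0.779 CPM in FH-5xA, 1.53 in FH-WT, 0.513 in knockout and 7.11 CPM in parental cells, a difference of -0.97 ± 0.28. The small RNAs RNY1, a Y RNA, and RNU5B-1, a U5 spliceosomal RNA, differed by 2.48 ± 0.57 and 1.31 ± 0.31, with RNY1 at 6.95 CPM in FH-5xA, 1.24 in FH-WT, 3.86 in knockout and 8.81 CPM in parental cells. The neuropeptide gene NPW differed by 1.89 ± 0.48, MTFP1, a protein of mitochondrial fission, by 1.23 ± 0.32, MEGF6 by 1.05 ± 0.32 and the RhoGAP ARHGAP11A by -0.84 ± 0.19. The others among the largest were the pseudogenes KRT18P13 at 0.97 ± 0.23, ACTBP2 at 0.94 ± 0.22, ATP5MKP1 at -0.99 ± 0.26, SETP3 at -0.85 ± 0.20 and SUMO2P6 at -0.85 ± 0.24, whose reads may stem from their parent genes.

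By list, 7 of 33 mitosis genes were lower in FH-5xA than in FH-WT and 0 higher, beside 2.12% of all genes lower. Of 36 matrix genes 6 were higher and 0 lower, and of 21 epithelial transcription and splicing factors 6 were higher and 0 lower, beside 1.97% of all genes higher. With differences centred within GC bins, 3 of the mitosis genes were lower, and 5 matrix genes and 6 epithelial factors were higher. The median transcript GC content was 42.6% for the mitosis list, 58.0% for the matrix list and 52.8% for the epithelial factors, and the part of GC content in these differences was not tested further. CDH1 was higher in FH-5xA than in FH-WT by 0.43 ± 0.10 and VIM was lower by 0.69 ± 0.15, so that both stood nearer to parental cells with FH-5xA. COL17A1 was higher in FH-5xA than in FH-WT by 0.74 ± 0.15. The shared control cancels in these differences. Their variances were solved from scores that also draw on the knockout and parental libraries.

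**Figure D5:**
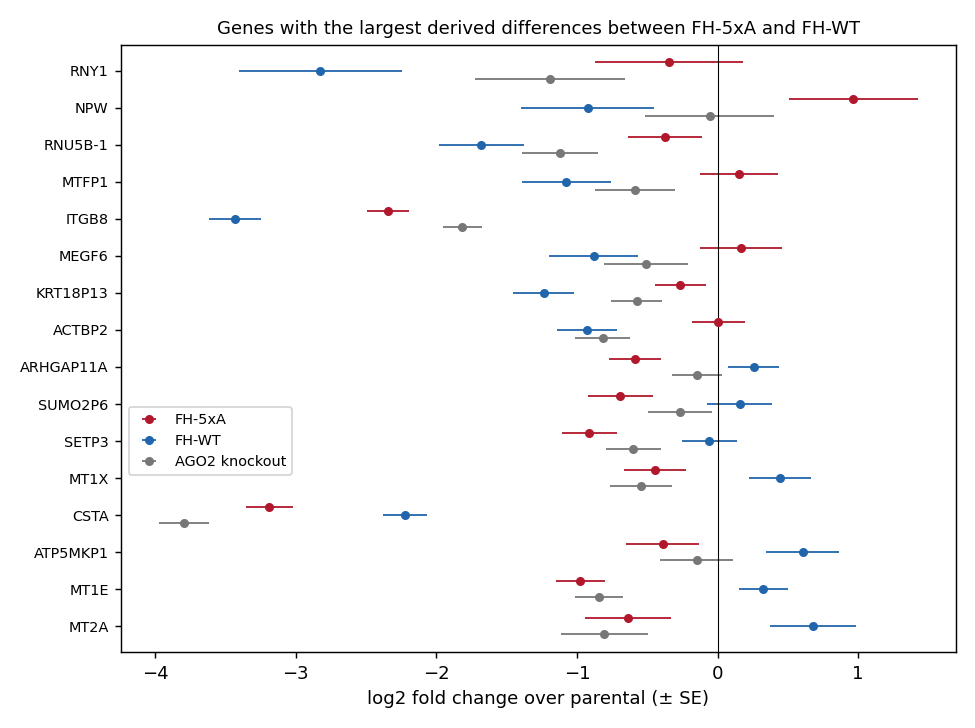
Log2 fold change over parental with SE bars (horizontal axis) for the 16 genes with the largest derived differences between FH-5xA (red) and FH-WT (blue), with knockout cells in grey. For MT1E and MT2A the FH-5xA and knockout points lie together below 0 and the FH-WT point above 0, and for RNY1 the FH-WT point at -2.83 is the lowest of the 3.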

How the data were processed

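RNA-seq of HCT116 cells was compared between 4 groups of 3 libraries. Reads were processed with edgeR 3.8.6, featureCounts 1.4.6, TopHat2 2.0.12 and Cufflinks 2.2.1, per the submitters' processing notes, with build hg38 (GRCh38) named there. The role of each tool, the annotation and the strand setting are not given in sources used here. The authors deposited 5 edgeR tables of 15074 genes with log2 fold changes and mean log2 CPM, a likelihood ratio score, p-values and FDR values. Counts per library were not analysed here, so no count model could be refitted and the depth is unknown, and the deposited test is the main test.

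SE is the absolute log2 fold change divided by the square root of the score. Fitted CPM per group was solved from the mean expression and the fold changes of the tables. The log2 difference FH-5xA minus FH-WT is the difference of their fold changes, its variance was solved from the deposited scores, and its p comes from the chi-square tail (1 degree of freedom) and Benjamini-Hochberg adjustment over 15072 genes. A similar solution, from another combination of the scores, was applied to FH-WT against knockout, which has a deposited table. It called 1511 genes, against 1516 deposited, with 1507 shared. The fold changes were equal there by construction, so only that solved variance was checked, and not the formula behind the FH-5xA minus FH-WT difference. The computation was tested on simulated data. Python 3.11.15, numpy 2.4.6, pandas 2.3.3, scipy 1.17.1 and matplotlib 3.10.9 were used.

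Symbols came from a symbol table (14974 of the identifiers matched) and from GENCODE 29 (15029 matched). Named genes were the 15 largest rises and 15 largest falls with a mean of at least 1 log2 CPM and a gene symbol, the 8 largest called differences each way with a symbol, 12 core silencing genes and up to 6 members per list by FDR. Members, the 55 gene lists and tests were chosen with earlier results of these data known. Alternatives were a stricter FDR, Holm adjustment, a fold minimum, an expression minimum, centring and leaving out chromosome 7; centring within GC bins was added after seeing the data. Some results are not reported here.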

Additional observations from a re-analysis of the deposited data

Results flagged for a closer look

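The 616 genes whose derived log2 difference between FH-5xA and FH-WT cells passed an adjusted p of 0.05 (edgeR scores, 4.09% of genes) are of interest because the same contrast with parental cells gave unequal effects in the 2 restored lines. The values below are that difference, FH-5xA minus FH-WT, for the named genes that passed. Among genes of epithelia, adhesion and matrix, the difference was 1.09 for ITGB8, 0.83 for EHF, 0.79 for COL1A1, 0.74 for COL17A1, 0.63 for ITGB4, 0.60 for GRHL2, 0.58 for LOXL4, 0.46 for MARVELD3, 0.43 for CDH1, 0.36 for MAL2 and 0.33 for ESRP1. In the same group it was -0.97 for CSTA. Among mesenchymal and microRNA target genes, the difference was -0.69 for VIM, -0.45 for ZEB1 and -0.34 for RBL1. Among genes of mitosis, replication and histones, the difference was -0.54 for H2BC21, -0.43 for H2BC11, -0.32 for HMMR, -0.28 for ANLN, -0.25 for CCNB2 and -0.21 for CDC6. Among genes of amino acid supply and protein synthesis, the difference was -0.82 for CHAC1, -0.42 for RPL37, -0.41 for RPL10, -0.38 for TRIB3, -0.36 for SARS1, -0.33 for WARS1 and -0.31 for ASNS. Among genes of signalling and receptors, the difference was 0.74 for IRS2, 0.59 for MST1R, 0.49 for IGFBP6, 0.41 for DKK1, 0.38 for F3 and 0.36 for EPAS1. In the same group it was -0.27 for DUSP6. Among metallothioneins, the difference was -1.32 for MT2A, -1.30 for MT1E and -0.89 for MT1X. Among noncoding RNAs and processed pseudogenes, the difference was 2.48 for RNY1, 1.31 for RNU5B-1, 0.97 for KRT18P13, 0.94 for ACTBP2 and 0.52 for NEAT1. In the same group it was -0.99 for ATP5MKP1, -0.85 for SETP3 and -0.85 for SUMO2P6. Among the other named genes, the difference was 1.89 for NPW, 1.23 for MTFP1, 1.05 for MEGF6, 0.74 for MDGA1, 0.41 for ABCC3 and 0.37 for BNIP3. In the same group it was -0.84 for ARHGAP11A, -0.37 for NAV3 and -0.27 for ACTL6A.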

How the results depend on the processing

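The 6602 genes called between FH-5xA and parental cells became 5078 at an FDR under 0.01, 6020 at a mean of at least 2 CPM, 6604 when centred on the median of all genes, 5981 without chromosome 7 and 6426 when centred within GC bins, with 5780 shared. Holm adjustment left 2402 genes and a minimum of 2-fold left 834. Of 616 genes called between FH-5xA and FH-WT, an adjusted p under 0.01 left 180, the larger SE gave 802, centring on the median of all genes gave 671 (286 higher and 385 lower), a mean of at least 2 CPM gave 636, and the count was 466 when centred within GC bins, with 386 shared. Among 52 list medians, miR-15/16 targets moved to -0.0974 and epithelial junctions to -0.225 without chromosome 7. With members at 2 CPM or more, mesenchymal genes moved to 0.457, neuronal genes to -0.115 and neural and kidney markers to 0.219. Desmosomes, plakins and keratins moved to -0.103 when centred within GC bins. The cause of each move was not tested, beyond the removal of members that the expression minimum and the left-out chromosome make by construction. Leaving out replicates, other normalizations and count models could not be run on the deposited tables. No paired analysis was possible because the tables used hold no columns per library. Library depth is unknown, so precision is known from the SE alone, which was wider at low expression.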

Other observations

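Lists not described above moved in part. Of 25 measured SWI/SNF chromatin remodelling genes 11 rose and 7 fell in FH-5xA against parental cells, beside 22.9% and 20.9% of all genes. The large subunits ARID1A and ARID1B rose by 1.15 ± 0.16 and 0.76 ± 0.11, and the subunits ACTL6A and SMARCE1 fell by 0.46 ± 0.08 and 0.40 ± 0.08 in the authors' deposited table. Of 18 BCL2 family genes 6 rose and 3 fell, among them BNIP3, a mitophagy receptor, higher by 0.52 ± 0.10, and BIK, a BH3 protein, higher by 0.91 ± 0.22 in the authors' deposited table. Of 17 genes of mucin-type O-glycosylation 5 rose and 5 fell: the transferases GALNT13 and GALNT5 rose by 1.34 ± 0.30 and 0.70 ± 0.11 in the authors' deposited table, while C1GALT1, which extends the first sugar and lies in the left part of chromosome 7, fell by 0.65 ± 0.09.

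Of 21 genes of glutathione and NRF2, 6 rose and 4 fell, beside 22.9% and 20.9% of all genes. The export pump ABCC3 was at 19 CPM in FH-5xA, 14.3 in FH-WT, 18.0 in knockout and 6.30 CPM in parental cells and rose by 1.59 ± 0.11 in the authors' deposited table. The cystine transporter SLC7A11 fell by 0.80 ± 0.11 and the quinone reductase NQO1 by 0.43 ± 0.09 in the authors' deposited table. Of 30 proteasome genes 7 fell and 1 rose, the falls near the 20.9% of all genes, with PSMC4 lower by 0.24 ± 0.06 and PSMA2, in the left part of chromosome 7, lower by 0.96 ± 0.12 in the authors' deposited table. Of 11 neuronal genes 4 rose and 4 fell: the calcium channel CACNA1A rose by 1.37 ± 0.14 and the vesicle protein SYT1 fell by 0.33 ± 0.07 in the authors' deposited table. Of 14 genes of paraspeckles and nuclear-retained RNA 3 rose and 5 fell, with the cleavage factor NUDT21 lower by 0.52 ± 0.08 in the authors' deposited table. PAX2, a kidney developmental factor, was at 3.43 CPM in FH-5xA, 2.83 in FH-WT, 1.85 in knockout and 1.03 CPM in parental cells.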
